A study of Penicillium oxalicum with 6 samples.

Results

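A set of 9 genes of the fungus Penicillium oxalicum, listed as endoglucanase genes, was followed in mycelium growing on cellulose, in a strain mutated in POX05503 and in a Ku70 mutant. The members are POX01166, POX01896, POX02740, POX04137, POX05570, POX05571, POX06147, POX06983 and POX07535. They were chosen by identifier, with earlier results of these data known, and all 9 were found among the 9834 genes of the deposited tables. The tables give no product names, and the RefSeq annotation of assembly ASM172317v3 held 0 of the identifiers. The name endoglucanase therefore comes from outside the files and could not be checked in them, and no enzyme family or single role is given to any member here.

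Endoglucanases cut bonds inside the chains of cellulose and so open new chain ends. Cellobiohydrolases then release cellobiose from those ends, and beta-glucosidases split cellobiose into glucose. Filamentous fungi commonly encode several endoglucanases and raise the transcripts of many of them when cellulose is the carbon source.

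RNA came from 6 libraries, 3 labelled MuPOX05503 and 3 labelled Ku70, the latter mutated in a component of non-homologous end joining that is often removed to ease gene targeting. Both strains were sampled after 24 h in liquid medium with 1% Avicel, a microcrystalline cellulose, at 28 °C and 180 rpm. The growth protocol of every library mentions spores of MuKu70, but no label states if the MuPOX05503 strain also lacks Ku70, so a difference in Ku70 and one in POX05503 cannot be told apart from the labels. The series concerns protein kinases that regulate cellulase and xylanase genes. It is also not stated if the libraries of a strain are separate cultures, so the p-values speak only of how far these libraries scatter, a scatter that may be technical. Total expected counts ran from 13653016 to 14263916 per library. POX05503 itself, the deleted gene, had 470 to 539 counts in the Ku70 libraries and 0 in each MuPOX05503 library, at least 499.8-fold lower relative to the totals, if 3 counts are allowed for the 3 mutant libraries together.

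All 9 endoglucanase genes were lower in MuPOX05503. Each passed the test across all genes (edgeR quasi-likelihood, Benjamini-Hochberg adjusted p under 0.05), and 0 were higher. Among the 8801 genes tested, 32.6% were lower and 31.9% higher by the same rule, 64.4% in either direction, so a fall alone did not set the members apart from a large part of the transcriptome. The falls were larger than most: all 9 members were at least 2-fold lower, where 13.9% of tested genes were, and 7 were at least 4-fold lower, where 5.48% were. The median log2 fold change of the members was -2.93, a 7.62-fold lower level, beside a median of 0.01 over all tested genes. In all 9 the FPKM values of the strains did not overlap, which held, in the same direction, for 29.7% of tested genes.

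Together the members took 1.21% ± 0.0720 of all expected counts in Ku70 (SD, n = 3) and 0.152% ± 0.0306 in MuPOX05503 (SD, n = 3), a ratio of 7.97. The 3 Ku70 libraries had shares of 1.16%, 1.30% and 1.19%, and the 3 MuPOX05503 libraries 0.186%, 0.126% and 0.146%. The lowest Ku70 share thus lay far above the highest mutant share.

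The members fell into 2 classes by level. FPKM, which scales a count to gene length and library depth, allows levels of different genes to be set side by side. With a mean over all 6 libraries of at least 100 FPKM as the limit, 5 members were abundant (POX01166, POX01896, POX05570, POX05571 and POX06147) and 4 were weak (POX02740, POX04137, POX06983 and POX07535). The abundant member closest to the limit, POX05571, averaged 624.8 FPKM and the weak member closest to it, POX02740, 83.8 FPKM. This mean includes the mutant libraries, so the fall of a gene enters its class. It decided the class of POX02740, which was above 100 FPKM in every Ku70 library (mean 131.6 FPKM) and would count as abundant by its Ku70 level alone.

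**Figure D1:**
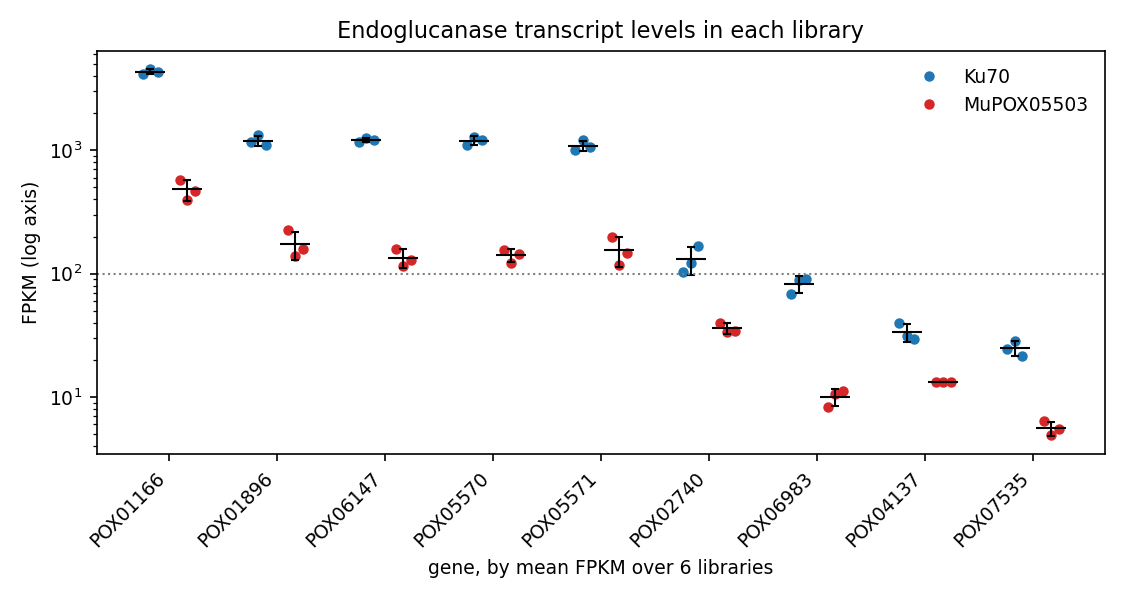
FPKM (log axis) of the 9 endoglucanase genes in each library, 3 points per strain, with the mean and SD as black bars; the dotted line marks 100 FPKM. Every Ku70 point of a gene lies above every MuPOX05503 point of that gene, and 5 genes stand above the other 4 in both strains.

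POX01166 was the most abundant endoglucanase gene in every library. Its level was 4178, 4557 and 4304 FPKM in the Ku70 libraries and 580.1, 399 and 468 FPKM in the MuPOX05503 libraries. It ranked 21 of 9834 genes by mean FPKM in Ku70 and 351 in MuPOX05503. It was 9.74-fold lower, with a 95% interval of 7.65 to 12.4 (log2 fold change -3.28, SE 0.15, edgeR adjusted p = 8.99e-08). Folds and their intervals are on the TMM scale, which is not that of FPKM, so FPKM ratios are not identical to them.

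The other 4 abundant members lay close together in Ku70. POX06147 was at 1168, 1262 and 1202 FPKM in Ku70 and at 159.9, 116 and 128 FPKM in MuPOX05503. POX05570 was at 1099.7, 1284 and 1221 FPKM in Ku70 and at 154, 123 and 146 FPKM in MuPOX05503. The strains were thus separated by a factor of at least 7.13 in both genes, taking the lowest Ku70 over the highest mutant value.

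POX01896 was at 1177, 1325 and 1099 FPKM in Ku70 and at 224, 139.6 and 158 FPKM in MuPOX05503. POX05571 was at 1013, 1214 and 1056 FPKM in Ku70 and at 200.3, 119 and 147 FPKM in MuPOX05503. Both varied more among the mutant libraries than POX05570 and POX06147 did: their SD was 25.5% and 26.7% of the mean there, against 11.5% and 16.8%.

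The log2 fold changes of these 4 genes ran from -3.28 for POX06147 (SE 0.14, edgeR adjusted p = 3.85e-08) to -2.90 for POX01896 (SE 0.18, edgeR adjusted p = 5.45e-07), with -3.20 for POX05570 and -2.93 for POX05571 in between. As folds, the 5 abundant members were 7.46 to 9.74 times lower. Their 95% intervals overlapped in all 10 pairs of abundant members. Within-library FPKM ratios, which leave out the scatter that members share, separated the strains in 6 of these 10 pairs. No background share over other gene pairs was computed for this count. Those 6 were the pairs of POX01896 or POX05571 with POX01166, POX05570 or POX06147, and in each of them POX01896 or POX05571 was the gene that fell less. The differences between strains in log2 ratio were small, at most 0.38 in size, as for POX01166 to POX01896 (-0.38, MuPOX05503 minus Ku70; p = 0.1 in an exact two-sided permutation test of 3 against 3 libraries, which can go no lower, and 0.144 adjusted over all 36 pairs of members).

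The weak members fell by more varied amounts. POX02740 was at 104, 122 and 169 FPKM in Ku70 and at 40.2, 33.7 and 34.3 FPKM in MuPOX05503, and it was 3.93-fold lower (95% interval 3.06 to 5.04; log2 fold change -1.97, SE 0.16, edgeR adjusted p = 3.59e-06). Ku70 replicate 3 was its highest library, and with an SD of 25.3% of the mean it was the least even member within Ku70. POX06983 was at 67.9, 88.6 and 90.6 FPKM in Ku70 and at 8.31, 10.7 and 11.3 FPKM in MuPOX05503. Its 8.77-fold lower level (95% interval 6.92 to 11.1; log2 fold change -3.13, SE 0.15, edgeR adjusted p = 1.09e-07) lay within the range of the abundant members.

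POX04137 showed the smallest fall. It was at 39.8, 31.1 and 29.7 FPKM in Ku70 and at 13.2 FPKM in each of the 3 MuPOX05503 libraries, from expected counts of 264, 260 and 262. These mutant values, with an SD of 0.02 FPKM, lay closer together than counting error alone would usually leave them. They are singled out as the most even values of any member in either strain, and their closeness was not tested. POX04137 was 2.74-fold lower (95% interval 2.23 to 3.37; log2 fold change -1.45, SE 0.13, edgeR adjusted p = 7.51e-06).

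POX07535 was the lowest member in every library, at 24.7, 28.4 and 21.7 FPKM in Ku70 and 6.36, 4.89 and 5.49 FPKM in MuPOX05503. It rested on 47 to 62 counts per mutant library, the fewest of any member. It was 4.81-fold lower (95% interval 3.77 to 6.15; log2 fold change -2.27, SE 0.16, edgeR adjusted p = 1.17e-06).

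**Figure D2:**
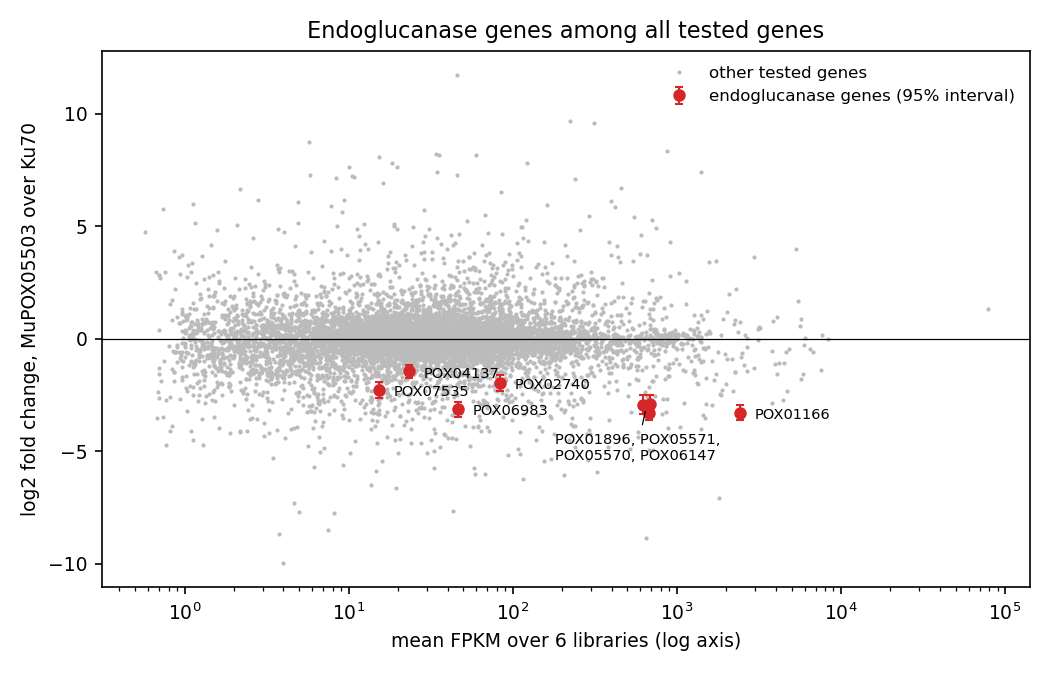
Log2 fold change of MuPOX05503 over Ku70 against mean FPKM over 6 libraries (log axis) for the tested genes other than POX05503, in grey, with the 9 endoglucanase genes in red and bars for their 95% intervals. The 5 abundant members lie between -3.28 and -2.90, and the 4 weak members between -3.13 and -1.45.

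The median log2 fold change was -3.20 for the 5 abundant members and -2.12 for the 4 weak ones. With POX02740 among the abundant genes, as its Ku70 level would place it, the medians were -3.07 over 6 genes and -2.27 over 3, and the folds of the abundant genes ran from 3.93 to 9.74. Summed over the abundant members, the level went from 9053 ± 525 to 1087 ± 214 FPKM (SD, n = 3 per strain), a ratio of 8.33. Summed over the weak members, it went from 272 ± 37.3 to 65.0 ± 2.82 FPKM, a ratio of 4.19. POX06983 was the exception among the weak members, and without a further test the classes are described here rather than compared.

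Because every library measures all members at once, their ratios within a library do not depend on how libraries are scaled. The make-up of the endoglucanase transcripts was similar between strains but not the same. POX01166 held 46.6% ± 0.587 of the summed FPKM of the 9 genes in Ku70 (SD, n = 3) and 41.9% ± 0.244 in MuPOX05503. Its share was 47.1%, 46.0% and 46.8% in the Ku70 libraries and 41.8%, 41.6% and 42.1% in the mutant libraries. The strains did not overlap.

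POX06147 also held a smaller share in the mutant, 11.7% ± 0.330 against 13.0% ± 0.229 in Ku70 (SD, n = 3 per strain). POX01896 held a larger one, 15.0% ± 1.03 against 12.9% ± 0.790, as did POX05571, with 13.4% ± 1.04 against 11.7% ± 0.463. For POX05571 the lowest mutant share, 12.37%, lay just above the highest Ku70 share, 12.25%. Its difference of 1.63 percentage points was 1.08 without MuPOX05503 replicate 1. The weak members went from 2.92% ± 0.397 together in Ku70 to 5.74% ± 0.809 in MuPOX05503. Of these, POX04137 went from 0.362% to 1.17%, POX02740 from 1.41% to 3.17% and POX07535 from 0.267% to 0.488%.

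For 7 of the 9 members the shares of the strains did not overlap (exact two-sided permutation p = 0.1 each, the smallest that 3 against 3 libraries allow, and 0.129 adjusted over the 9 members). POX05570 and POX06983 overlapped between strains (exact permutation p = 0.6 and 0.9). None of these tests could pass 0.05 in this design. The shares of the 9 members in a library add up to a whole, so they do not move independently. Within-library ratios of 2 members separated the strains in 25 of the 36 pairs. These were 6 of 10 between abundant members, 4 of 6 between weak ones and 15 of 20 across the classes. The adjusted p was again at least 0.144 by the exact permutation test. All pairs reuse the same 9 genes, and no share over other gene pairs was computed, so these counts only describe the members. The 95% intervals of the folds were apart in 17 pairs. Of those 17 pairs, 13 joined an abundant and a weak member and 4 joined 2 weak ones.

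**Figure D3:**
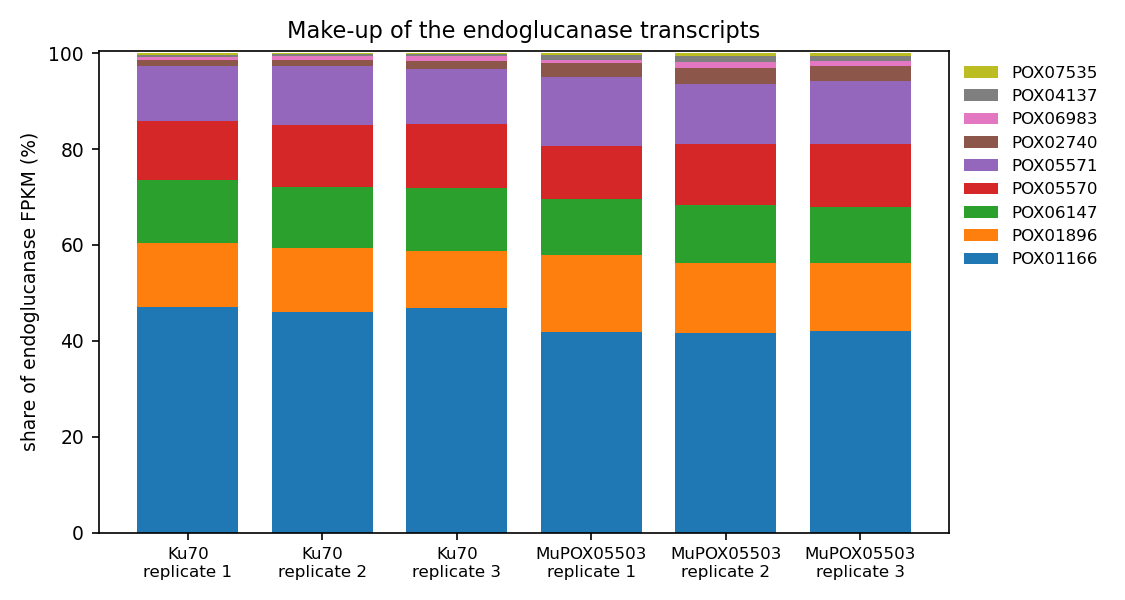
Share of each gene in the summed FPKM of the 9 endoglucanase genes (percent, stacked bars from 0 to 100) in each of the 6 libraries. POX01166 holds 46.0% to 47.1% in the Ku70 libraries and 41.6% to 42.1% in the MuPOX05503 libraries, and the 4 weak genes at the top take up more of the mutant bars.

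The order of the levels was partly kept. In Ku70, POX01166 stood 3.59-fold above POX06147, with no overlap. POX06147, POX05570 and POX01896 followed at means of 1211, 1201 and 1200.3 FPKM and could not be ranked, since each was above the next in 1 of 3 libraries. POX05571, at 1094 FPKM, was below POX01896 in all 3 libraries, although their ranges overlapped. The step from POX05571 down to POX02740 was 8.32-fold.

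In MuPOX05503, POX01166 stood 2.77-fold above POX01896, which was followed by POX05571, POX05570 and POX06147 at 155, 141 and 134.7 FPKM. The ranges of neighbours among these 4 genes overlapped. POX06147, first of the 4 by mean in Ku70, was last of them in the mutant. The step from the abundant to the weak members was 3.74-fold. POX04137 was above POX06983 in all 3 mutant libraries, at 13.2 and 10.1 FPKM, while POX06983 was 2.46-fold above POX04137 in Ku70.

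The members placed far apart in the whole transcriptome. By mean FPKM in Ku70 the abundant members ranked 21 to 142 of 9834 genes, and in MuPOX05503 351 to 1198. The weak members ranked 1149 to 4442 in Ku70 and 3769 to 7425 in MuPOX05503. POX07535, at rank 4442, was close to the middle of the table in Ku70.

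POX05570 and POX05571 carry consecutive numbers. Both are abundant and both fell, 9.19-fold (95% interval 7.60 to 11.1, edgeR adjusted p = 2.40e-08) and 7.62-fold (95% interval 5.72 to 10.1, edgeR adjusted p = 5.87e-07). POX05571 had more counts than POX05570 in every library, for example 20922 against 12428 in Ku70 replicate 1. The effective length implied by counts, FPKM and library totals was 1451 bases for POX05571 and 794 bases for POX05570. This is the length that scales a count to FPKM, and it need not equal the length of the gene. Per length the genes were nearly equal.

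The FPKM ratio of POX05570 to POX05571 was 1.09, 1.06 and 1.16 in the Ku70 libraries and 0.771, 1.04 and 0.992 in the MuPOX05503 libraries. The ratios of the strains did not overlap, but the highest mutant ratio lay just under the lowest Ku70 ratio. The mean log2 ratio differed by -0.248 between the strains, MuPOX05503 minus Ku70 (p = 0.1 in an exact two-sided permutation test, which can go no lower here). MuPOX05503 replicate 1 accounted for much of this, as the difference without it was -0.116, while leaving out each other library in turn gave -0.330 to -0.212.

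**Figure D4:**
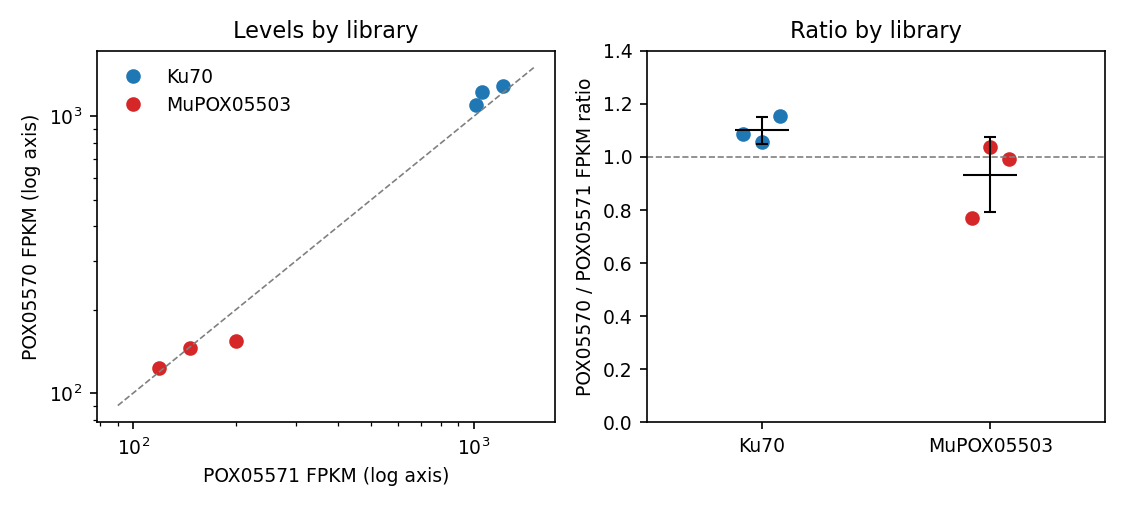
Left, FPKM of POX05570 against POX05571 in each library (log axes, dashed line at equal levels); right, their ratio by strain with the mean and SD as black bars. The Ku70 ratios are 1.06 to 1.16 and the mutant ratios 0.771 to 1.04, with MuPOX05503 replicate 1 the lowest.

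The spread among libraries was shared by the abundant members. Among the mutant libraries, MuPOX05503 replicate 1 was the highest and replicate 2 the lowest for all 5 abundant members. In Ku70, replicate 2 was the highest for all 5, and replicate 1 was the lowest for 4 of them. The weak members shared the mutant order in part. MuPOX05503 replicate 1 was the highest for 2 of the 4, POX02740 and POX07535. Replicate 2 was the lowest for 3, whereas POX06983 was lowest in replicate 1. Among those 3 was POX04137, whose mutant values of 13.22, 13.2 and 13.24 FPKM were too close to rank. In Ku70, replicate 2 was the highest library for 1 of the 4 weak members.

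Implied effective lengths of the members ranged from 703 bases for POX07535 to 2005 bases for POX01896. The abundant members covered nearly the whole of that range, from 794 bases. All counts of the 9 members were whole within 0.005 in every library. Fractional counts, which occurred for 113 to 126 genes per library, arise when reads are divided between similar genes, so no such division was recorded for the members. No source used here gives the strand setting, so it is not known if reads from genes overlapping a member on the other strand were kept apart.

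Genes with nearby numbers were looked at next, although the files do not say if numbers follow the chromosomes. Within 3 numbers of a member there were 48 other genes, of which 46 were tested: 23 were lower, 10 higher and 13 did not pass. That is 50% lower calls, beside 32.6% of all tested genes. Their median log2 fold change was -0.32, so most neighbours moved far less than the members. At a distance of 1, 9 of 15 tested neighbours were lower, 3 were higher and 3 did not pass.

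POX06147 followed 3 genes that fell by similar or larger amounts. Their log2 fold changes were -3.30, -3.52 and -4.05 (edgeR adjusted p = 1.78e-06, 5.66e-08 and 4.59e-08), while the genes 1 and 2 numbers after it did not pass (0.02 and 0.04). The gene 2 numbers before POX06147 was more abundant than any endoglucanase gene but POX01166, going from 2721 ± 178 to 257 ± 47.4 FPKM (SD, n = 3). POX07535 closed a run of 5 lower genes with log2 fold changes from -4.33 to -1.03. In that run the gene 3 numbers before it went from 1734 ± 326 to 92.6 ± 31.1 FPKM, far above the level of POX07535 itself. The gene directly after POX07535 rose (log2 fold change 1.54, edgeR adjusted p = 3.09e-05). No share of such runs over all genes was computed.

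The gene directly before POX02740 fell more than any member (log2 fold change -4.49, edgeR adjusted p = 6.33e-09), while the gene directly after it rose (0.77, edgeR adjusted p = 0.00319). The gene directly before POX01166 fell too (-2.81, edgeR adjusted p = 3.40e-06). Directly before the pair POX05570 and POX05571 lay a gene that rose from 3.91 ± 0.741 to 60.8 ± 8.06 FPKM (n = 3, SD; a log2 fold change of 3.84, edgeR adjusted p = 3.23e-08). The genes 1 number before and after POX01896 did not pass, at log2 fold changes of -0.10 and 0.07. The fall of POX01896 was thus not shared by the genes numbered directly beside it.

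**Figure D5:**
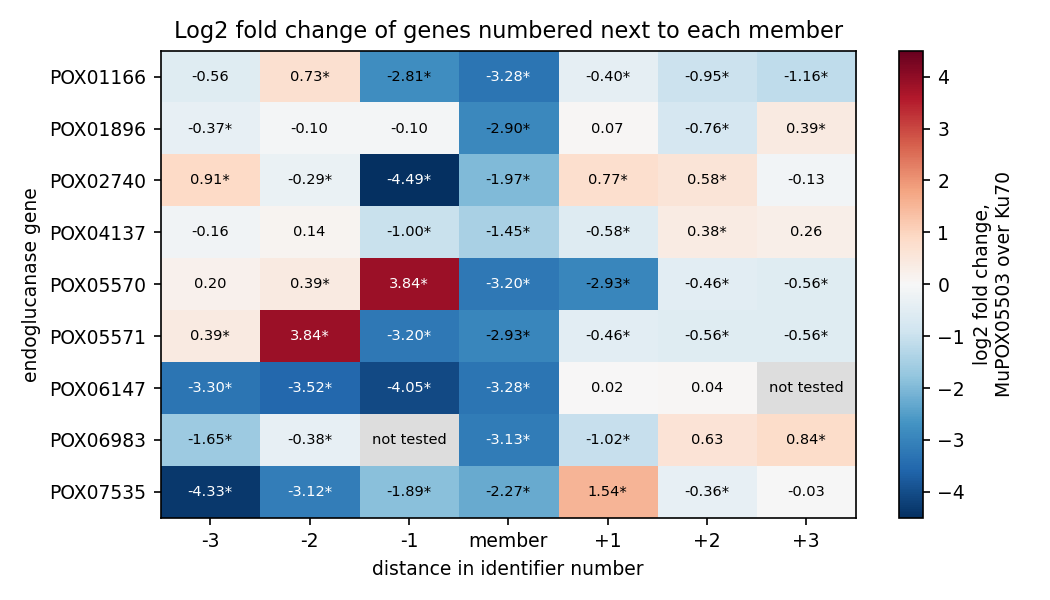
Log2 fold change of MuPOX05503 over Ku70 for the genes up to 3 identifier numbers before and after each endoglucanase gene, with blue for lower, red for higher, grey for not tested and a star for an adjusted p under 0.05. Blue runs precede POX06147 and POX07535, and POX01896 stands alone between its direct neighbours.

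Other genes of plant cell wall breakdown were taken from short lists of recalled identifiers whose products the files do not give. Both lists were drawn up with earlier results of these data known, so their counts only describe these genes. Of 12 further identifiers on a cellulase list, 9 were lower, 2 higher and 1 did not pass, with a median log2 fold change of -2.71. Of 5 on a xylanase list, 4 were lower and 1 did not pass, with a median of -2.97. Of all tested genes, 32.6% were lower and 31.9% higher, and their median was 0.01. The cellulase list held 2 genes that rose, whereas 0 of the 9 endoglucanase genes and 0 of the 5 on the xylanase list did. The 2 rises in 12 are a smaller share than the 31.9% over all tested genes. In the cellulase list the highest fold change was 2.68, on the log2 scale, and the lowest -3.93. The endoglucanase genes kept to a narrower range, from -3.28 to -1.45.

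The 2 genes whose levels correlated most closely with the summed endoglucanase FPKM were POX06601, which is on the xylanase list, and POX08296. Each had a Pearson correlation of 0.9994 over the 6 libraries, on log2(FPKM + 1), among 1559 genes with a mean of at least 100 FPKM. POX06601 was at 195.8, 223 and 225 FPKM in Ku70 and at 9.94, 4.18 and 5.78 FPKM in MuPOX05503. POX08296 was at 375, 398 and 355 FPKM in Ku70 and at 89.2, 66.6 and 71.5 FPKM in MuPOX05503. A correlation does not measure the size of a fall, and the log2 fold changes of POX06601 and POX08296 differed, at -5.13 and -2.42. In both, MuPOX05503 replicate 1 was the highest mutant library, as for the abundant endoglucanase genes. Both were picked for their correlation over these same libraries, so this shared order is no separate likeness. The libraries fall into 2 strains, so such a correlation mostly reflects the gap between the strains, and 120 of the 1559 genes had one above 0.99.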

How the data were processed

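The authors deposited 1 table per library, with an expected count (an estimated count per gene, not normalized) and an FPKM value per gene, per the file headers. Per the submitters' processing notes, RSEM 1.2.12, Bowtie2 2.1.0, DESeq2 and BWA 0.7.10-r789 were used, in roles that are not stated. Genome build, annotation and strand setting: not given in the sources used here.

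For testing, each expected count was rounded to a whole number, and edgeR 4.0.16 (R 4.3.3) was applied (TMM factors, quasi-likelihood test, Benjamini-Hochberg adjustment over all 8801 genes with at least 1 FPKM in at least 3 of the 6 libraries). Fold changes are MuPOX05503 over Ku70. Standard errors and 95% intervals were derived from the F statistics. The scripts were tested on simulated data. Shares and ratios used exact permutation tests over libraries. Alternatives used DESeq2 1.42.0, limma 3.58.1, other scalings and filters, a replicate block and left-out libraries.

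The members and lists were chosen with earlier results of these data known. The text names the 9 members, POX05503 and the 2 genes most alike in pattern. The floor of 3 counts covers counting error only. The intervals of the folds, derived from the quasi-likelihood F statistics, also take in the scatter among libraries of a strain. No 2 libraries were identical; pairs within a strain differed by a chi-square of 10.5 to 47.3 per degree of freedom, above counting noise.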

Additional observations from a re-analysis of the deposited data

How the results depend on the processing

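All 9 endoglucanase genes were lower, and at least 2-fold so, under every alternative run: other scalings, other filters, DESeq2, limma on log2(FPKM + 1) or log2(FPKM + 0.1), the replicate block and each library left out. Their median log2 fold change ranged from -3.10 to -2.76, and the largest adjusted p of a member was 0.000109, without MuPOX05503 replicate 3. Library totals in place of TMM moved the median of all tested genes to 0.12 and that of the members to -2.81. The share of changed genes that were higher was 49.4% with TMM and 57.8% with library totals. The number of changed genes, 5672, ranged from 4928 to 5506 with 1 library left out. The ratio of the members' share of counts between the strains, 7.97, ranged from 7.32 to 8.95.

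With a replicate block by title letter there were 5529 changed genes, all 9 members were lower, and no call of a member changed. Same-numbered libraries did not deviate together (r = 0.00, -0.03 and -0.02), so the letters were not taken to pair them.

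Changes in a member's share, in percentage points, reversed only for the 2 members whose strains overlapped. For POX05570 the difference of -0.53 ranged from -0.90 to 0.09 and turned without MuPOX05503 replicate 1. For POX06983 the difference of 0.03 ranged from -0.07 to 0.18 and turned without Ku70 replicate 1 and without MuPOX05503 replicate 2 or 3. The cause was not tested. Alternatives for the neighbouring genes (18 to 23 lower), the other cellulase list (8 to 9 lower), the xylanase list (4 to 5 lower) and POX05503, and the classes set by Ku70 level, were added after the data were examined. Fewer than 3 libraries remain with POX05503 when a Ku70 library is left out, so it was not tested there.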
